A study of Homo sapiens and Mus musculus with 22 samples.

Results

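The 10 protein-coding genes described here stood apart between U2OS cells with an ATG5 knockdown (KD) and U2OS cells with a vector: TNNT2, NPPB, CXCL14, BPIFB4, LAMA4, DYNC1I1, RRAD, ARL14, SYTL2 and CA11. They were chosen by measured values of the same samples, namely the difference between KD and vector with mock treatment or with BIX-01294 (BIX), and the change with BIX in KD against that in vector. They are 10 of the 21867 genes kept in the ATG5-set tables, where 11 entries carry their names because CA11 also stands in a joined entry. In the SETDB1 set they are 10 of 22585 genes, with 10 entries. The differences between KD and vector are therefore given as a description and not tested, and only the SETDB1 set, which had no part in the choice, carries tests.

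U2OS is a human osteosarcoma line. Messenger RNA was selected on its poly(A) tails and sequenced as paired ends. The ATG5 set held ATG5 KD cells with BIX (10 µM, 12 h), ATG5 KD cells with mock treatment, vector cells with BIX (10 µM, 12 h) and vector cells with mock treatment, and each group is 1 value that stands for 2 replicates pooled by the authors, per the labels. The SETDB1 set held mock-treated U2OS from 2 SETDB1 knockouts (KO1 and KO2) and mock-treated wild-type (WT) U2OS, with 2 libraries per group. How the knockdown was made, whether KO1 and KO2 are single clones, and whether libraries came from separate cultures are not stated in the sources used here, so p-values measure only the spread between these libraries, which may be technical. A treatment note shared by all RNA samples names BIX for every sample, while the sample names separate mock from BIX, and the names were followed. The mouse and chromatin samples of the series were not analysed here.

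The targeted gene does not separate the groups of the ATG5 set. ATG5 stood at 13.4 FPKM in KD cells with BIX and 12.3 FPKM in vector cells with BIX, and at 10.1 FPKM in mock KD cells and 11.3 FPKM in mock vector cells. A knockdown of ATG5 mRNA was thus not visible, at a log2 difference of -0.16 in mock and 0.12 with BIX, and every direction below is between the values labelled KD and vector. In the SETDB1 set, SETDB1 averaged 6.46 ± 0.797 FPKM in KO1, 7.12 ± 0.321 FPKM in KO2 and 9.65 ± 0.464 FPKM in WT (SD, n = 2 libraries each). It fell by 0.45 on the log2 scale in the mean of the knockouts (SE 0.109, limma, Benjamini-Hochberg adjusted p = 0.0432). Neither line passed alone, at -0.52 in KO1 (SE 0.126, limma adjusted p = 0.0568) and -0.39 in KO2 (SE 0.126, limma adjusted p = 0.202). Of 12 bone and mesenchymal markers, 8 were at 1 FPKM or more in all 4 ATG5-set values, and TWIST1 was listed at 0 throughout. Their median difference between KD and vector was -0.16 in mock and -0.11 with BIX, and the widest, all lower in KD, were COL1A1 (-0.75 in mock, -0.75 with BIX), RUNX2 (-0.73, -0.44) and FN1 (-0.71, -0.95). The list did not move as a whole. SPARC (-0.22, -0.08) and ALPL (-0.09, -0.13) were slightly lower in KD, and SPP1 (-0.11, 0.40) changed direction. VIM (0.11, 0.24) and the joined entry of BGLAP, PMF1 and SLC25A44 (0.31, 0.35) were higher in KD. The summed level of that list was 1671 FPKM with BIX and 1950 FPKM with mock in KD, against 1775 FPKM with BIX and 2231 FPKM with mock in vector, and the part of these differences in those of the 10 genes was not tested.

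ATG5 is joined to ATG12 to form part of the machinery that attaches LC3-type proteins to the growing autophagosome membrane, and cells without it form few autophagosomes. BIX inhibits EHMT1 and EHMT2, enzymes that methylate lysine 9 of histone H3, a mark of silenced chromatin, and SETDB1 is another enzyme that writes this mark. The 10 genes do not form a single pathway. TNNT2 encodes cardiac troponin T, the subunit that ties the troponin complex to tropomyosin, and NPPB encodes the precursor of B-type natriuretic peptide, a heart hormone that lowers blood volume. CXCL14 is a secreted chemokine, BPIFB4 a member of the BPI fold family of lipid-binding-type proteins, and LAMA4 the alpha-4 chain of laminins in basement membranes. DYNC1I1 is an intermediate chain of cytoplasmic dynein, the motor that moves cargo towards microtubule minus ends, and SYTL2 is a RAB27-binding protein of secretory vesicles. RRAD is a GTPase of the RGK family, which binds calcium channel beta subunits, ARL14 is an ARF-like small GTPase, and CA11 is a carbonic anhydrase-related protein that lacks the enzyme's activity.

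Promoters of 5 of the 10 genes, TNNT2, CXCL14, BPIFB4, LAMA4 and DYNC1I1, were matched in RefSeq (build GRCh38.p14, which is not the hg19 build of the expression files). Those shown are of the genes with the widest gap between KD and vector in both treatments among the matched ones: TNNT2 at chr1:201377631-201377930 on the minus strand, CXCL14 at chr5:135578942-135579241 on the minus strand and BPIFB4 at chr20:33079393-33079692 on the plus strand. Each runs 5′ to 3′ along the gene, from 250 bases before to 50 bases after the annotated start, and capitals mark the motif matches.
TNNT2: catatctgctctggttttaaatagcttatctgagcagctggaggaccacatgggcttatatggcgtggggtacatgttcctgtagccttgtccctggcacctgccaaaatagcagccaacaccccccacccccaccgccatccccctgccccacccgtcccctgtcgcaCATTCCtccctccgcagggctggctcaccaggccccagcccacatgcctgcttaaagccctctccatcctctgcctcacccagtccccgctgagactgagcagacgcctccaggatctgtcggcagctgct
CXCL14: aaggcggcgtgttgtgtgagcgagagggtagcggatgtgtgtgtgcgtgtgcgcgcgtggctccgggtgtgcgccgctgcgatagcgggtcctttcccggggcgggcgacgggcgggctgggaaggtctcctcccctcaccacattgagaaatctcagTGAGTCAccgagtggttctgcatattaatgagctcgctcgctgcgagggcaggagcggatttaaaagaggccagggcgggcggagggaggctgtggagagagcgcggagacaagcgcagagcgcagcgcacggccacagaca
BPIFB4: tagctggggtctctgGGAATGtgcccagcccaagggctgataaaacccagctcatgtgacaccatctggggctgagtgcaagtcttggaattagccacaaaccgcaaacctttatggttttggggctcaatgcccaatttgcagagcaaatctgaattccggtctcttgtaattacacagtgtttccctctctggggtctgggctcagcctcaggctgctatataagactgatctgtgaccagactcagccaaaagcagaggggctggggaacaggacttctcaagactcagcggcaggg
The search covered 5 motifs on both strands. TATAAA is a core form of the TATA box and was searched only as that exact string. Other forms of this box were not searched, such as the tatataag printed in the BPIFB4 window. CATTCC is the core of M-CAT, an element known from the chicken cardiac troponin T promoter. TGAGTCA is bound by AP-1 and TGACGTCA, named CRE, by CREB-type factors, and the CArG box is bound by SRF. None of the matches overlapped another. TNNT2 holds CATTCC on its own strand at base -81 from the start, and BPIFB4 holds it on the other strand at base -235. CATTCC is present in 14.04% of all 34796 promoters of that length, so a match is common. CXCL14 holds TGAGTCA at base -92, a motif found in 4.96% of promoters. TATAAA (11.6%), TGACGTCA (1.84%) and the CArG box (1.30%) were matched in none of the 5 windows, and the LAMA4 and DYNC1I1 windows held no match at all. The GC content was 61% for TNNT2, 65% for CXCL14, 52.3% for BPIFB4, 51.3% for LAMA4 and 64.7% for DYNC1I1, around a median of 58.7% over all promoters.

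Differences below are on the log2(FPKM + 1) scale, which understates changes of low genes, and a gene counts as 2-fold apart at a difference of 1 or more with at least 1 FPKM in 1 of the values compared. In bulk RNA, fewer cells with a transcript and less of it per cell cannot be told apart. With mock treatment, 7 of the 9 genes at 1 FPKM or more were 2-fold apart between KD and vector, 2 higher and 5 lower in KD, where 0.960% of all 12393 genes were apart (0.508% higher, 0.452% lower). With BIX, 9 of 10 were apart, 4 higher and 5 lower, where 1.87% of 12164 genes were (1.41% higher, 0.460% lower). These counts follow from how the genes were picked and are given as a description. The median difference over all genes was 0.01 in mock and 0.03 with BIX.

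**Figure D1:**
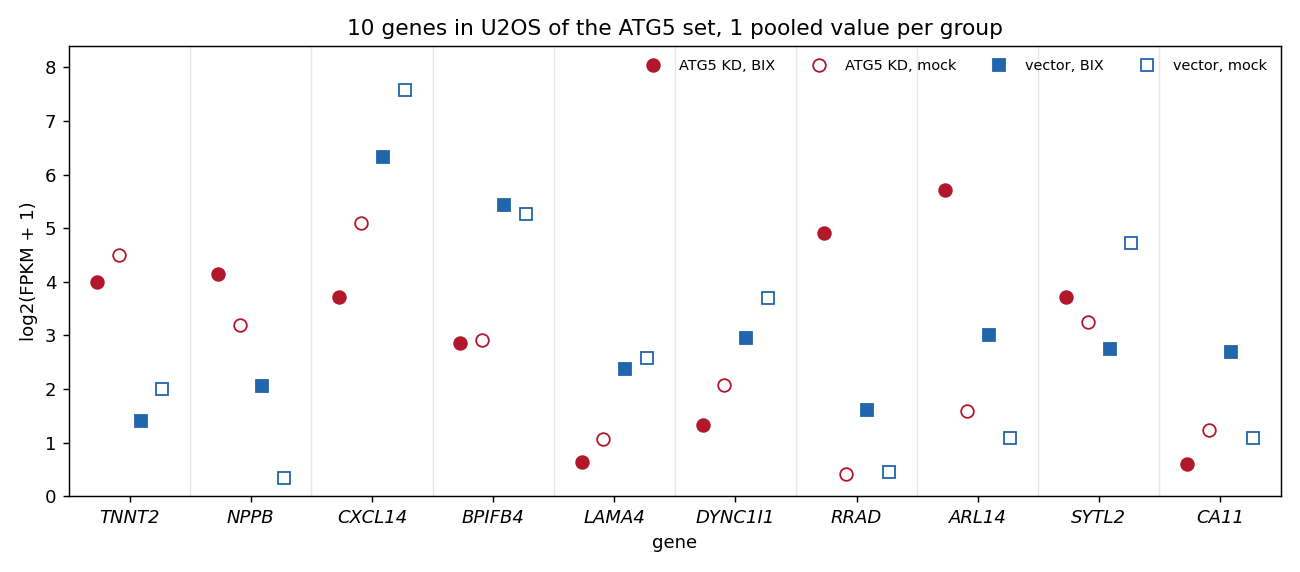
The 10 genes in the 4 values of the ATG5 set, with log2(FPKM + 1) on the vertical axis and 1 pooled value per group (filled, BIX; open, mock; circles, ATG5 KD; squares, vector). TNNT2 and NPPB are higher in KD in both treatments, CXCL14, BPIFB4, LAMA4 and DYNC1I1 are lower in both, and RRAD, ARL14, SYTL2 and CA11 differ in how they moved with BIX.

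Both genes best known from heart muscle were higher in KD in each treatment. TNNT2 was at 15.0 FPKM with BIX and 21.6 FPKM with mock in KD cells, against 1.65 FPKM with BIX and 2.996 FPKM with mock in vector cells. The difference was 2.50 in mock and 2.59 with BIX, the second highest of all genes in mock and the third with BIX. BIX left TNNT2 lower in both backgrounds by a similar step, -0.50 in KD and -0.59 in vector, so the gap hardly moved.

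NPPB had the widest positive difference of all genes in mock. It was at 16.6 FPKM with BIX and 8.13 FPKM with mock in KD cells, against 3.18 FPKM with BIX and 0.264 FPKM with mock in vector cells. The difference was 2.85 in mock and 2.08 with BIX. Unlike TNNT2, NPPB was higher with BIX in both backgrounds, by 0.95 in KD and 1.73 in vector, so its gap was narrower with BIX by 0.78, and the vector mock value behind the wider one lies under 1 FPKM.

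Another 4 genes were lower in KD in both treatments. CXCL14 was the most abundant of the 10 genes in mock vector cells. It was at 12.2 FPKM with BIX and 33.0 FPKM with mock in KD cells, against 79.7 FPKM with BIX and 190.1 FPKM with mock in vector cells. The difference was -2.49 in mock and -2.61 with BIX, where it was the lowest of all genes. CXCL14 was also 2-fold lower with BIX than with mock in each background, by -1.37 in KD and -1.24 in vector, so KD and BIX each went with a lower level.

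BPIFB4 had the flattest profile across BIX. It was at 6.28 FPKM with BIX and 6.53 FPKM with mock in KD cells, against 42.0 FPKM with BIX and 37.3 FPKM with mock in vector cells. KD minus vector came to -2.35 in mock and -2.56 with BIX, the second lowest of all genes with BIX. BIX against mock gave -0.05 in KD and 0.17 in vector.

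LAMA4 and DYNC1I1 were lower in KD at lower abundance. LAMA4 was at 0.547 FPKM with BIX and 1.10 FPKM with mock in KD cells, against 4.18 FPKM with BIX and 5.01 FPKM with mock in vector cells, a difference of -1.51 in mock and -1.74 with BIX. DYNC1I1 was at 1.52 FPKM with BIX and 3.24 FPKM with mock in KD cells, against 6.73 FPKM with BIX and 11.9 FPKM with mock in vector cells, a difference of -1.61 in mock and -1.62 with BIX. For DYNC1I1 the change with BIX was also the same to within 0.01 in both backgrounds, at -0.75 in KD and -0.74 in vector. For LAMA4 it was smaller, at -0.44 in KD and -0.21 in vector. RefSeq places other transcripts over both genes, LAMA4-AS1 and RNU6-1226P among them for LAMA4, and since the strandedness of the libraries is not stated in the sources used here, reads of such partners cannot be told apart from theirs.

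**Figure D2:**
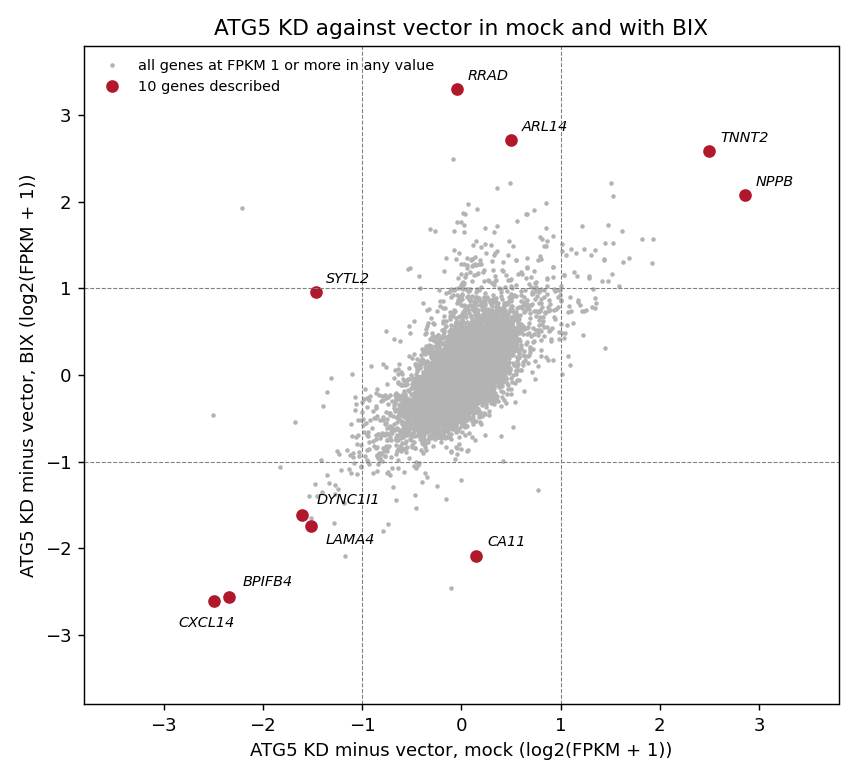
Difference between ATG5 KD and vector with mock treatment (horizontal) and with BIX (vertical), both as log2(FPKM + 1), for each gene at 1 FPKM or more in any value (grey) and for the 10 genes (red), with dashed lines at 2-fold. TNNT2 and NPPB lie top right, CXCL14, BPIFB4, LAMA4 and DYNC1I1 bottom left, RRAD and ARL14 at the top near the middle, and SYTL2 and CA11 on opposite sides of the other diagonal.

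The remaining 4 genes passed the 2-fold limit between KD and vector in 1 treatment only. SYTL2 passed it in mock (-1.47) and was just under it with BIX, in the other direction (0.96). The change of these 4 genes with BIX differed between the backgrounds by 2-fold or more, which 0.930% of 12789 genes did (0.829% higher in KD, 0.102% lower). These 4 of the 10 were among those picked for that difference, 3 of them with the higher change in KD. NPPB, at -0.78, fell short of the limit on this scale. Its plain FPKM ratio of BIX to mock was 2.05 in KD and 12.1 in vector, the latter over a vector mock value of 0.264 FPKM.

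RRAD and ARL14 were low with mock treatment and higher with BIX, more so in KD. RRAD was at 29.2 FPKM with BIX and 0.332 FPKM with mock in KD cells, against 2.05 FPKM with BIX and 0.373 FPKM with mock in vector cells. BIX against mock gave 4.50 in KD and 1.15 in vector, and the difference between KD and vector with BIX, 3.31, was the highest of all genes. With mock treatment RRAD was under 1 FPKM in both and was not counted.

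ARL14 followed the same pattern. It was at 51.6 FPKM with BIX and 2.02 FPKM with mock in KD cells, against 7.01 FPKM with BIX and 1.13 FPKM with mock in vector cells. BIX against mock gave 4.12 in KD and 1.91 in vector, and KD stood above vector by 2.71 with BIX and by 0.50 in mock.

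SYTL2 and CA11 moved with BIX in opposite directions in KD and vector. SYTL2 was at 12.1 FPKM with BIX and 8.55 FPKM with mock in KD cells, against 5.74 FPKM with BIX and 25.4 FPKM with mock in vector cells. It was higher with BIX in KD, by 0.46, and lower with BIX in vector, by -1.97. KD was therefore below vector in mock, by -1.47, and above it with BIX, by 0.96.

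CA11 went the other way. Its own entry was at 0.517 FPKM with BIX and 1.35 FPKM with mock in KD cells, against 5.43 FPKM with BIX and 1.12 FPKM with mock in vector cells. BIX against mock gave -0.63 in KD and 1.60 in vector. These values are uncertain, because the tables hold a second entry that joins CA11 with DBP and SEC1P, at 31.3 FPKM with BIX and 38.1 FPKM with mock in KD cells, against 54.6 FPKM with BIX and 58.4 FPKM with mock in vector cells. The joined entry showed no such crossing, with KD below vector by -0.60 in mock and -0.78 with BIX, and how reads were shared between the entries is not stated in the sources used here.

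Across the set, BIX against mock put 3 of the 10 genes 2-fold apart in KD, RRAD and ARL14 higher and CXCL14 lower, where 11.7% of 12512 genes were apart (8.05% higher, 3.70% lower). In vector it was 6 of 10, NPPB, RRAD, ARL14 and CA11 higher and CXCL14 and SYTL2 lower, where 10.7% of 12476 genes were (6.36% higher, 4.31% lower). These ratios share their mock and BIX values with the differences that chose the genes. At the border of the 2-fold limit in mock, outside the 10 genes, ARHGDIB stood at 1.002 and NOV at -1.0005 just inside it, and DHCR7 at 0.992 and EPHA3 at -0.990 just outside.

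WT U2OS of the SETDB1 set gives a second mock-treated sample of the same line. It was deposited as a separate set of tables with other gene entries, so levels are set side by side with no fold or test, and the comparison was added after the values were seen. TNNT2 was at 21.6 FPKM in KD, 2.996 FPKM in vector, and 22.2 and 34.8 FPKM in the 2 WT libraries. CXCL14 was at 33.0 FPKM in KD, 190.1 FPKM in vector, and 25.7 and 39.0 FPKM in WT. For both, the KD level was close to WT and the vector level stood apart from it.

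NPPB was at 8.13 FPKM in KD, 0.264 FPKM in vector, and 19.8 and 24.9 FPKM in WT. LAMA4 was at 1.10 FPKM in KD, 5.01 FPKM in vector, and 1.15 and 0.462 FPKM in WT. NPPB in KD lay between vector and WT, while LAMA4 in KD lay within the WT libraries. BPIFB4 was at 6.53 FPKM in KD, 37.3 FPKM in vector, and 1.24 and 0.531 FPKM in WT. DYNC1I1 was at 3.24 FPKM in KD, 11.9 FPKM in vector, and 1.17 and 0.970 FPKM in WT. These 2 genes were thus above WT in both KD and vector, and further above it in vector.

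SYTL2 was at 8.55 FPKM in KD, 25.4 FPKM in vector, and 13.3 and 16.5 FPKM in WT, which put WT between them. ARL14 was at 2.02 FPKM in KD, 1.13 FPKM in vector, and 1.80 and 3.29 FPKM in WT. RRAD was under 1 FPKM in all of them, at 0.332 in KD, 0.373 in vector, and 0.533 and 0.896 in WT. CA11, at 14.5 and 16.7 FPKM in WT, cannot be set beside the ATG5 set, since the 2 sets split its entries differently. On the log2 scale KD was nearer than vector to the WT mean in 8 of the 8 genes at 1 FPKM or more in mock, leaving out CA11. For SYTL2 the 2 distances were nearly the same, at -0.73 for KD and 0.74 for vector. Over all 11493 genes with values in both sets KD was nearer in 65.6%, and over 107 other genes 2-fold apart between KD and vector it was nearer in 88.8%, so this pattern is not particular to the 10 genes.

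**Figure D3:**
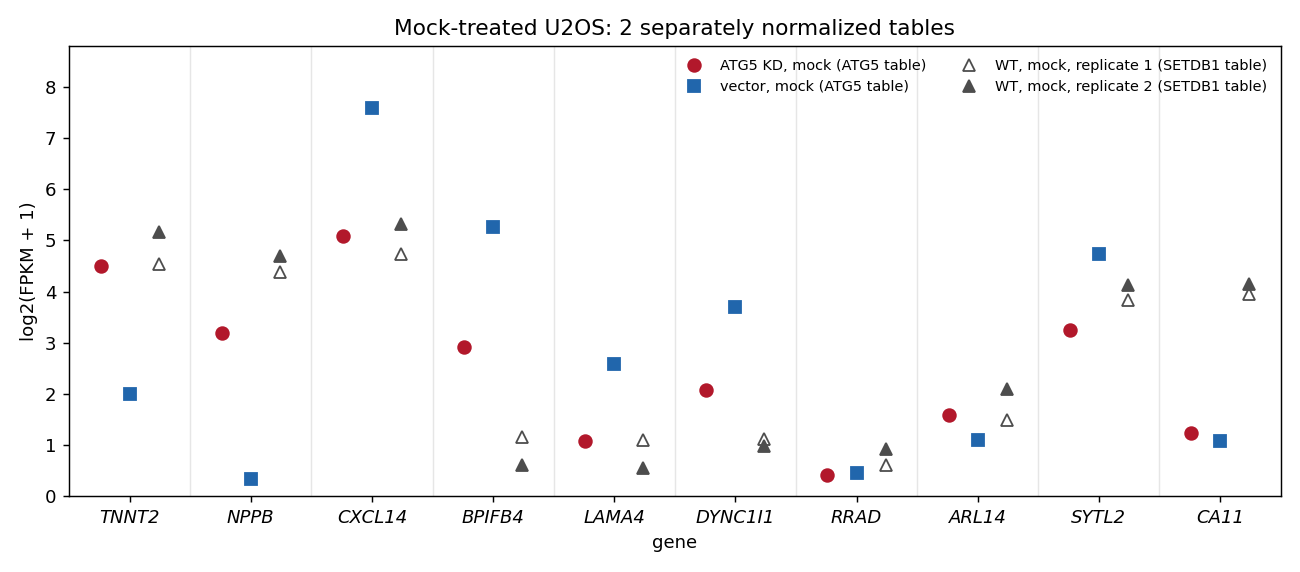
The 10 genes in mock-treated U2OS as log2(FPKM + 1), with the pooled ATG5 KD and vector values beside the 2 WT libraries of the SETDB1 set, which is a separately deposited set. The KD circles of TNNT2, CXCL14 and LAMA4 lie by the WT triangles, and the vector squares of these genes lie apart from them.

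The SETDB1 set took no part in choosing the genes. Of the 10, 7 had at least 1 FPKM in 2 or more of the 6 libraries and were tested, and BPIFB4, LAMA4 and RRAD were not. With the knockouts averaged and set against WT, 1 of the 7, NPPB, was called, and it was lower, where 3.24% of 12544 genes were called (0.781% lower, 2.46% higher). In KO1 alone 2 were called, NPPB and TNNT2, both lower, where 2.42% of genes were called (0.518% lower, 1.91% higher). In KO2 alone NPPB was called lower, where 2.46% of genes were called (0.438% lower, 2.02% higher). The median of the 7 was -0.34 in the mean contrast, beside -0.01 over all genes tested. KO1 and KO2 are compared with the same 2 WT libraries. Libraries of the same replicate number shared stepped low values in 15.5% to 22.7% of low genes, against 6.26% to 7.57% between numbers, so differences within a number are given beside the called genes and CXCL14.

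NPPB, the natriuretic peptide precursor, was lower in both knockouts. It was at 7.32 and 9.72 FPKM in KO1, 15.0 and 10.3 FPKM in KO2, and 19.8 and 24.9 FPKM in WT. Both libraries of each knockout lay below both WT libraries, as 22.0% of all genes tested did for KO1 and 18.0% for KO2. NPPB fell by 1.04 in the mean of the knockouts (SE 0.155, limma, Benjamini-Hochberg adjusted p = 0.00175), by 1.30 in KO1 (SE 0.179, limma adjusted p = 0.00121) and by 0.79 in KO2 (SE 0.179, limma adjusted p = 0.0394). Within replicate 1 and replicate 2 the difference was -1.32 and -1.27 for KO1, and -0.38 and -1.20 for KO2. The call in the mean and in KO1 was lost with no filter on low values (limma adjusted p = 0.0692 and 0.0675). The KO2 call rests on single libraries, with a limma adjusted p of 0.372 without KO2 replicate 2 and 0.233 without WT replicate 2, and it was also lost with no filter (0.263), with quantile normalization (0.0615) and with the replicate number as a term (0.0610).

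TNNT2 was lower in KO1. It was at 11.2 and 17.4 FPKM in KO1, 20.0 and 25.2 FPKM in KO2, and 22.2 and 34.8 FPKM in WT. KO1 did not overlap WT, and KO2 did. TNNT2 fell by 0.94 in KO1 (SE 0.215, limma, Benjamini-Hochberg adjusted p = 0.0405), and the difference was -0.30 in KO2 (limma adjusted p = 0.789) and -0.62 in the mean (SE 0.186, limma adjusted p = 0.123). Within replicate 1 and replicate 2 it was -0.93 and -0.96 for KO1, and -0.14 and -0.45 for KO2. KO1 against KO2 gave -0.65, which did not pass (limma adjusted p = 1.00), as did none of the genes, with 0.00% called, and 202 genes were under an unadjusted p of 0.05. The KO1 call was lost without KO1 replicate 1 (limma adjusted p = 0.146), without WT replicate 2 (0.259), without KO2 replicate 1 (0.0666) or replicate 2 (0.0698), with no filter on low values (0.305), at a minimum of 5 FPKM (0.0501) and with quantile normalization (0.0686). The mean of the knockouts, by contrast, passed for TNNT2 without KO1 replicate 2 (limma adjusted p = 0.00323), without WT replicate 1 (0.0129) or with the replicate number as a term (0.00380).

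CXCL14 had the same order of groups, and whether it passed depended on the fit. It was at 13.7 and 22.9 FPKM in KO1, 17.4 and 28.5 FPKM in KO2, and 25.7 and 39.0 FPKM in WT. Replicate 2 was the higher library in every group for CXCL14, as it was for TNNT2. Within replicate 1 and replicate 2 the difference was -0.86 and -0.75 for KO1, and -0.53 and -0.44 for KO2. With no term for the replicate number it was -0.64 in the mean of the knockouts (SE 0.220, limma adjusted p = 0.203), -0.80 in KO1 (limma adjusted p = 0.193) and -0.49 in KO2 (limma adjusted p = 0.594). It passed in the mean and in KO1 without KO1 replicate 2 (limma adjusted p = 0.00517 and 0.00402), and in KO1 without WT replicate 1 (0.0448). With the replicate number as a term it passed in the mean (limma adjusted p = 0.00128), in KO1 (0.000989) and in KO2 (0.0204).

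The other 4 genes tested were not called in any contrast. ARL14 was at 1.69 and 1.82 FPKM in KO1, 1.34 and 2.18 FPKM in KO2, and 1.80 and 3.29 FPKM in WT, a difference of -0.34 in the mean (limma adjusted p = 0.533). SYTL2 was at 12.1 and 16.3 FPKM in KO1, 15.7 and 17.6 FPKM in KO2, and 13.3 and 16.5 FPKM in WT, a difference of 0.04 (limma adjusted p = 0.951). In both genes the groups overlapped. CA11, with an entry of its own here, was at 17.4 and 16.3 FPKM in KO1, 16.3 and 17.9 FPKM in KO2, and 14.5 and 16.7 FPKM in WT, a difference of 0.12 (limma adjusted p = 0.757). DYNC1I1 was at 1.14 and 1.27 FPKM in KO1, 0.777 and 1.02 FPKM in KO2, and 1.17 and 0.970 FPKM in WT, a difference of -0.02 (limma adjusted p = 0.978). A p that misses the threshold does not show that the levels were alike.

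The remaining 3 genes were too low to test. BPIFB4 was at 0.878 and 0.865 FPKM in KO1, 0.707 and 0.443 FPKM in KO2, and 1.24 and 0.531 FPKM in WT. LAMA4 was at 0.501 and 0.658 FPKM in KO1, 0.838 and 0.364 FPKM in KO2, and 1.15 and 0.462 FPKM in WT. RRAD was at 0.578 and 0.351 FPKM in KO1, 0.877 and 0.901 FPKM in KO2, and 0.533 and 0.896 FPKM in WT. For all 3 the knockout libraries overlapped the WT libraries.

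**Figure D4:**
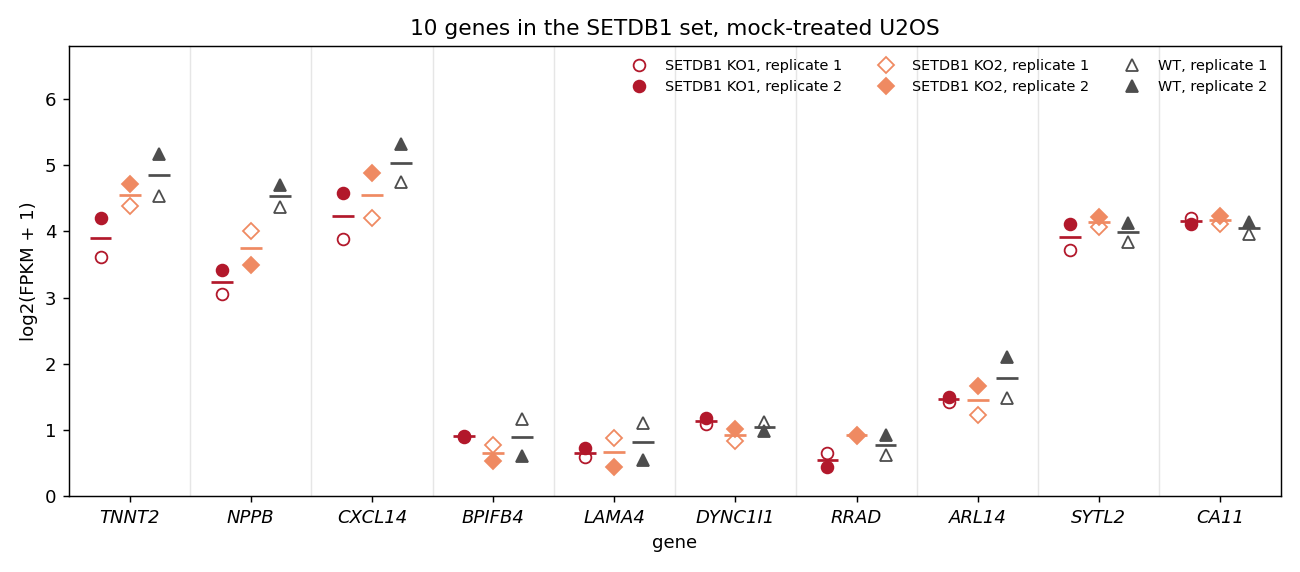
The 10 genes in each library of the SETDB1 set as log2(FPKM + 1), with replicate 1 open, replicate 2 filled and the group mean as a bar. NPPB lies below WT in both libraries of KO1 and of KO2, TNNT2 and CXCL14 lie below WT in KO1, and the other 7 genes overlap.

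The relatives of each gene were described from lists of its family or pathway. Among other genes of the troponin and sarcomere list, TNNC1, which encodes the calcium-binding troponin subunit of slow and cardiac muscle, was the 1 of 10 that was 2-fold apart in mock, against 2 of 12 with BIX, TNNC1 and MYOZ2, a Z-disc protein. TNNC1 was at 34.3 FPKM with BIX and 41.2 FPKM with mock in KD cells, against 13.3 FPKM with BIX and 12.7 FPKM with mock in vector cells, a difference of 1.63 in mock and 1.31 with BIX. MYL2, the ventricular regulatory myosin light chain, was just under 2-fold, at 23.3 and 31.3 FPKM in KD and 11.2 and 15.9 FPKM in vector (BIX, then mock). The entry joining ACTA2, smooth muscle actin, with FAS-AS1 differed by 0.47 in mock. The median of the list without TNNT2 was 0.15 in mock and 0.38 with BIX. In the SETDB1 set none of 10 was called, and TNNC1 gave -0.27 (limma adjusted p = 0.739), while for TNNT2 the same contrast gave -0.62.

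The wider cardiomyocyte marker list did not hold a full set of heart transcripts. In mock, 5 of its 12 genes were at 1 FPKM or more in both backgrounds, and with BIX 6. Its summed level was 83.9 FPKM with BIX and 95.1 FPKM with mock in KD, against 52.4 FPKM with BIX and 55.8 FPKM with mock in vector. The list did not move as a whole, with a median difference between KD and vector of -0.14 in mock and 0.19 with BIX. In mock TNNC1 (1.63) and MYL2 (0.93) were higher in KD. NKX2-5 (-0.31), GATA4 (-0.24) and the joined entry of DNAAF3 and TNNI3 (-0.14) were lower in KD in mock. MYH7 and MYBPC3, the slow myosin heavy chain and its binding protein, were listed at 0 in all 4 values. The cardiac transcription factor NKX2-5 was at 18.9 and 14.1 FPKM in KD and 21.1 and 17.8 FPKM in vector (BIX, then mock). The part of these transcripts in the TNNT2 and NPPB differences was not tested.

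For NPPB, only 2 other genes of the natriuretic peptide list were at 1 FPKM or more in mock, and neither was 2-fold apart. They were FURIN, a convertase that cleaves peptide precursors, at -0.29 and the receptor NPR2 at 0.10. NPPA, the neighbouring atrial peptide gene, was at 1.53 FPKM with BIX and 0.453 FPKM with mock in KD cells, against 1.04 FPKM with BIX and 0.268 FPKM with mock in vector cells. NPPA was thus higher with BIX in both backgrounds, as NPPB was, but at a difference between KD and vector of 0.20 in mock, against 2.85 for NPPB.

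For CXCL14, 3 other CXC chemokines or receptors were at 1 FPKM or more in mock, CXCL16 (-0.12), CXCL8 (0.06) and the scavenging receptor ACKR3 (-0.04), and none was 2-fold apart. ACKR3 was called lower in the SETDB1 knockouts, at -0.47 (limma adjusted p = 0.0116), the 1 of 3 tested. For BPIFB4, the lipid transfer protein PLTP was the 1 relative at that level, at -0.17 in mock, and it was called higher in the knockouts, at 0.61 (limma adjusted p = 0.0463). For LAMA4, none of 17 other laminin chains and receptors was 2-fold apart in either treatment, with a median of -0.18 in mock and -0.15 with BIX. The widest in mock were ITGB4 (-0.40), an integrin subunit of hemidesmosomes, the adhesion protein MCAM (0.34) and the integrin subunit ITGA7 (-0.28). The laminin receptor BCAM was called lower in the knockouts, at -0.55 (SE 0.0968, limma adjusted p = 0.0065), the 1 of 16 tested.

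For DYNC1I1, none of 22 other subunits of dynein and dynactin was 2-fold apart, with a median of 0.10 in mock and 0.17 with BIX. The widest in mock were DCTN3 (0.37), DYNLT1 (0.33) and DYNLL1 (0.20). Its paralog DYNC1I2 was at 42.4 and 44.3 FPKM in KD and 39.6 and 41.2 FPKM in vector (BIX, then mock), so FPKM, which is scaled to length, put the paralog well above DYNC1I1 in every value. For SYTL2, none of 9 others of the RAB27 and synaptotagmin-like list was 2-fold apart, with a median of 0.02 in both treatments. EXPH5 (0.36), SYTL3 (0.32) and SYTL5 (-0.23) were the widest in mock, and RAB27A, its GTPase partner, was at 4.97 and 5.94 FPKM in KD and 4.88 and 5.85 FPKM in vector (BIX, then mock).

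For RRAD, none of 8 other RGK GTPases and calcium channel subunits was 2-fold apart between KD and vector, with a median of -0.19 in mock and -0.22 with BIX. CACNB2 (-0.60), CACNA1C (-0.44) and CACNA2D2 (-0.41), all channel subunits, were the widest in mock. GEM, another RGK GTPase, was at 139.6 FPKM with BIX and 5.13 FPKM with mock in KD cells, against 76.3 FPKM with BIX and 3.98 FPKM with mock in vector cells. GEM was thus higher with BIX in both backgrounds by a wide margin, as RRAD was in KD, and its difference between KD and vector with BIX was 0.86, against 3.31 for RRAD.

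For ARL14, none of 23 other ARL and ARF GTPases was 2-fold apart, with a median of 0.05 in mock and 0.11 with BIX, and ARL10 (-0.37), ARL16 (0.26) and ARF4 (0.24) were the widest in mock. For CA11, none of 7 other carbonic anhydrases was, with a median of 0.02 in mock and -0.14 with BIX, and CA8 (-0.53), CA2 (0.34) and CA12 (-0.11) were the widest in mock. CA12, a membrane-bound form, was called lower in the SETDB1 knockouts, at -0.53 (limma adjusted p = 0.0356). Among 26 core autophagy genes none was 2-fold apart, with a median of 0.05 in mock and 0.11 with BIX. GABARAPL1 (-0.32) and GABARAPL2 (0.27), both of the LC3-type family, and the joined entry of ATG16L1 and SCARNA5 (0.26) were the widest in mock. The 12 epithelial markers stood in 11 entries, of which 5 were at 1 FPKM or more. The widest of these in mock were KRT18 (0.71), the joined entry of KRT14, KRT16 and KRT19 (-0.64) and KRT8 (0.34). Of 10 blood markers at most 1 was at 1 FPKM or more. The summed level of the epithelial list was 1188 FPKM with BIX and 859.2 FPKM with mock in KD, against 796.9 FPKM with BIX and 624.4 FPKM with mock in vector. Most of each sum came from 2 keratins, so it does not describe the list as a whole. KRT8 was at 633.3 and 486.3 FPKM in KD and 471.4 and 382.8 FPKM in vector (BIX, then mock). KRT18 was at 537.4 and 350.1 FPKM in KD and 304.6 and 213.1 FPKM in vector. The part of this list in the differences of the 10 genes was not tested.

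The genes with the most similar profile over the 4 ATG5-set values were found by the Euclidean distance of log2(FPKM + 1), each gene centred on its own mean, among 9646 genes at 5 FPKM or more in 1 value. DYNC1I1 had the closest companion, FAM198B, at a distance of 0.101, with 11.0 and 19.1 FPKM in KD and 36.6 and 56.2 FPKM in vector (BIX, then mock). FAM198B was also nearest to CXCL14, but at 1.16, the widest nearest distance of the 10 genes. LINC00662 was nearest to LAMA4, at 0.302, with 5.83 and 8.75 FPKM in KD and 18.0 and 21.2 FPKM in vector. All 3 pairs were lower in KD and lower with BIX.

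CFLAR-AS1 was nearest to ARL14, at 0.457, with 39.7 and 1.25 FPKM in KD and 7.74 and 0.610 FPKM in vector (BIX, then mock). ADAMTS6, a secreted metalloprotease, was nearest to RRAD, at 0.897. PLEKHA7, a junction protein, was nearest to CA11, at 0.613. SGK1, a kinase of salt handling, was nearest to SYTL2, at 0.849, with 15.3 and 10.7 FPKM in KD and 10.5 and 18.8 FPKM in vector, and it crossed in the same way as SYTL2. TNNT2 (BCYRN1, 0.868), NPPB (ZNF542P, 0.926) and BPIFB4 (ZXDA, 0.970) had no companion as close as those of DYNC1I1, LAMA4 and ARL14. The same held for CXCL14, RRAD, SYTL2 and CA11. Likeness over 4 pooled values is a description, with no test.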

How the data were processed

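RNA sequencing values of 10 human samples were used. The authors deposited FPKM per gene (fragments scaled to transcript length and library size), which were used as deposited. FastQC, cutadapt, TopHat2, Cufflinks and the build hg19 are named in the submitters' processing notes, and no version, option, annotation or strandedness is given in the sources used here. The ATG5-set FPKM stand for 2 replicates pooled by the authors, per the labels, so they have no error. Read counts and depth are unknown: among genes under 0.3 FPKM, stepped values lined up in 15.5% to 22.7% of genes between SETDB1-set libraries of the same replicate number, in 6.26% to 7.57% between numbers, and in 1.28% to 3.07% in the ATG5 set. Column sums ran from 445281 to 564049 FPKM. Short RNA genes, for which FPKM is unstable, were left out by name.

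Values were taken as log2(FPKM + 1). Single values were compared at 1 FPKM or more in 1 value, with no test. The SETDB1 set was fitted with limma 3.58.1 (R 4.3.3) on all 6 libraries, variance trend on, at 1 FPKM or more in 2 or more libraries, with Benjamini-Hochberg adjustment over all genes and calls below 0.05, after being tested on simulated data. The 10 genes, the family lists and the marker lists were chosen with earlier results of these data known. The genes named are the 10, ATG5 and SETDB1, up to 3 relatives per list with the widest KD minus vector difference in mock, relatives called in the mean of the knockouts, the nearest profile, and the genes beside the 2-fold limit. MYOZ2, NPPA, GEM, DYNC1I2, RAB27A, TWIST1, MYH7, MYBPC3, GATA4 and the joined entry of DNAAF3 and TNNI3 were named after their values were seen. The same holds for SPARC, ALPL, SPP1, VIM and the joined entry of BGLAP, PMF1 and SLC25A44. Alternatives covered the pseudocount, the filter, scaling, a replicate block and leaving out each library.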

Additional observations from a re-analysis of the deposited data

Results flagged for a closer look

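The change with BIX had opposite signs in ATG5 KD and vector for SYTL2 and CA11. For SYTL2 it was 0.46 in KD and -1.97 in vector on the log2(FPKM + 1) scale, a gap of 2.43. For CA11 it was -0.63 in KD and 1.60 in vector, a gap of -2.24. Each rests on 1 pooled value per group, both genes were chosen with this gap in view, and the difference was not tested. The CA11 value comes from 1 of 2 entries that carry the gene's name.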

How the results depend on the processing

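Among the 10 genes, no difference that had passed a test changed sign. The alternatives were not followed for SETDB1 or for the relatives called in the knockouts. With a pseudocount of 0.1 the genes 2-fold apart between KD and vector numbered 266 in mock (119 as reported) and 498 with BIX (227), those apart between BIX and mock 2341 in KD (1470) and 2118 in vector (1332), and those whose change with BIX differed 280 (119). Those with a differing change split into 212 higher and 68 lower (106 and 13 as reported), BIX in KD into 1302 and 1039 (1007 and 463) and in vector into 1038 and 1080 (794 and 538), which turned the majority in vector to lower. Of the 10 genes, 6 were then apart between BIX and mock in KD (3). At a minimum of 5 FPKM the change with BIX differed for 74 genes. In the SETDB1 set a minimum of 5 FPKM gave 201 called genes for the averaged knockouts (407), 150 for KO1 (304) and 148 for KO2 (308), with 1 of the 10 genes called in KO1. With no filter these were 179 in KO1 and 186 in KO2, with 0 of the 10 genes in any knockout contrast, and quantile normalization left 1 in KO1 and 0 in KO2. Leaving out single libraries gave 1 to 3 of the 10 genes in the mean, 1 to 3 in KO1 and 0 to 1 in KO2. It gave 170 to 364 genes in KO2 and 0 to 4 in KO1 against KO2, the lone library of a group then being assumed to vary like the others. Differences that had not passed changed sign in some of these fits: DYNC1I1 in the mean (-0.0884 to 0.0519), SYTL2 in the mean (-0.10 to 0.19) and in KO1 (-0.27 to 0.13), TNNT2 in KO2 (-0.612 to 0.0177), and CXCL14 (-0.660 to 0.0357), ARL14 (-0.21 to 0.24) and CA11 (-0.0802 to 0.0418) in KO1 against KO2. Why these values moved was not tested beyond the fewer genes or libraries used.

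The replicate block gave 3 of the 10 genes in the mean of the knockouts, NPPB, TNNT2 (limma adjusted p = 0.00380) and CXCL14 (0.00128), the same 3 in KO1, and in KO2 CXCL14 alone (0.0204). Called genes numbered 506 for the averaged knockouts, 391 for KO1 and 367 for KO2, and NPPB in KO2 no longer passed (0.0610). The labels do not say that a number marks a shared batch. Stepped low values lined up more within a number than between numbers, while the deviations from the group means correlated at 0.20 between KO1 and KO2, 0.38 between KO1 and WT and 0.004 between KO2 and WT. The unknown depth of the pooled values limits every low gene, RRAD and LAMA4 above all.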
